A study of Homo sapiens with 12 samples.

Results

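The transcripts of 42 chaperone and co-chaperone genes were followed after CD146 was lowered in 1 cell line and raised in another. The 42 symbols were looked up among the 61806 Ensembl gene IDs of the count table, and all 42 were found. By role they were 5 HSP70 genes, 3 HSP110 genes, 2 HSP90 genes, 2 small heat shock protein genes, 8 HSP40 (J-domain) genes, 6 co-chaperones of HSP90, 4 co-chaperones of HSP70, 2 heat shock factors, the 8 subunits of the cytosolic chaperonin TRiC and 2 chaperonin genes, HSPD1 and HSPE1. HSPD1 and HSPE1 encode proteins of the mitochondrial matrix, so they are described apart from the cytosolic chaperones.

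Hep3B and HepG2 are established lines from human liver tumours. Poly(A) RNA was sequenced in 4 groups of 3 libraries. Cells labelled Hep3B carried a Tet-on-induced control shRNA or a Tet-on-induced shRNA against CD146, and HepG2 cells carried the pLVX vector or the CD146 vector. The former were grown in DMEM and the latter in MEM with sodium pyruvate. CD146 is a cell adhesion molecule of the immunoglobulin superfamily, encoded by MCAM. Whether replicates were separate cultures is not stated in the labels, so the spread behind each p-value is that of the libraries and may be technical. The titles number the shRNA libraries in a way that could also mark different hairpins, and they were treated as replicates of 1 group.

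HSP70 proteins bind exposed hydrophobic stretches of unfolded proteins in cycles of ATP binding and hydrolysis. J-domain proteins deliver substrates and speed hydrolysis, and HSP110 proteins and BAG proteins exchange the nucleotide. HSP90 acts later, on nearly folded clients such as kinases and steroid receptors, in a cycle set by its co-chaperones, while TRiC folds actin and tubulin in a closed ring. Many of these genes are transcribed under heat shock factor 1, which binds repeated nGAAn units in their promoters.

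Libraries held 12.8M to 18.1M counts (M, 1e6), and a count of 3 was worth 0.165 to 0.235 counts per 1e6 (CPM). CPM of single genes below are scaled by TMM, which evens out differences in composition, within each comparison. MCAM fell from a mean of 115 to 24.4 CPM under CD146 shRNA and rose from 23.4 to 1932 CPM with the CD146 vector. The libraries labelled Hep3B were low in the hepatocyte markers examined. None of 10 hepatocyte markers reached a mean of 10 CPM in either of their groups (summed level 7.50 to 10.3 CPM under control shRNA and 9.38 to 71.0 CPM under CD146 shRNA, AFP and TTR at 0 in all control shRNA libraries), against 10 of 10 in HepG2 (summed level 51508 to 59312 CPM). They are therefore called the libraries labelled Hep3B. Mitochondrial transcripts took 7.72 to 8.02% of counts under control shRNA and 9.43 to 10.5% under CD146 shRNA. The summed level of 4 fibroblast and stellate cell markers was 58.2 to 66.7 CPM under control shRNA, LUM being at 0 there, and 92.7 to 114 CPM under CD146 shRNA. In HepG2 the mitochondrial share was 12.6 to 13% with pLVX and 11.2 to 11.8% with CD146. The summed level of 4 cholangiocyte markers was 346 to 364 CPM with pLVX and 486 to 500 CPM with CD146, and with both shRNAs it was 189 to 203 CPM (control) and 157 to 162 CPM (CD146). The part of these shifts in the results below was not tested.

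Promoters were searched for 3 adjoining units of the heat shock element, GAA, any 2 bases, TTC, any 2 bases and GAA, or the reverse complement of this run, from 250 bases before to 50 bases after each RefSeq start (GRCh38.p14). Of the members, 36 were in the promoter table, and 7 of these held the motif (19.4%), against 0.608% of the 27305 genes of the table. These were HSPA8, HSP90AA1, HSP90AB1, HSPD1, DNAJA1, DNAJB6 and CHORDC1. The windows that lie before the start are shown because these members include the most abundant cytosolic chaperones and the member with the largest fall. Each is given 5′ to 3′ on the strand of the gene, with the run of units in capitals.

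CHORDC1, chr11:90223083-90223112, minus strand: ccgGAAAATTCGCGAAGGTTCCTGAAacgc
HSPA8 near the start, chr11:123062170-123062199, minus strand: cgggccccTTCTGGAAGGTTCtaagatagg
HSPA8 far from the start, chr11:123062345-123062374, minus strand: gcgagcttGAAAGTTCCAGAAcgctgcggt
HSP90AA1, chr14:102087111-102087140, minus strand: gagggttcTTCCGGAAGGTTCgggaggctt
HSP90AB1, chr6:44247770-44247799, plus strand: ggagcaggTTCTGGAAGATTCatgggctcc
HSP90AB1 nearer the start, chr6:44247823-44247852, plus strand: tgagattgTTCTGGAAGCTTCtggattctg
HSPD1, chr2:197500061-197500090, minus strand: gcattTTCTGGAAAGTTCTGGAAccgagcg
DNAJB6, chr7:157336865-157336894, plus strand: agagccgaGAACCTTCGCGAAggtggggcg

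CHORDC1 had the longest run, 5 units over 23 bases beginning 60 bases before its start. HSPD1 had 4 units beginning 245 bases before its start, and the other windows held 3. HSPA8 carried its runs 55 and 230 bases before the start, HSP90AA1 its run 88 bases before and HSP90AB1 its runs 112 and 165 bases before. For HSP90AB1, unlike the other genes with the motif, the last bases searched after the start were found in none of its GENCODE 29 transcripts. Where its runs lie relative to the start in use is therefore less certain. In DNAJA1 the run began 3 bases after the start. A match is a description of the letters and no evidence of binding.

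The first comparison asked how the chaperones stood after CD146 was lowered. All 42 members passed the filter on low counts in the libraries labelled Hep3B. With the CD146 shRNA 35 members fell, 2 rose (HSPA2 and STIP1) and 5 were not called at an adjusted p under 0.05 (HSPB8, CDC37, ST13, BAG1 and HSF2). Of all 16968 genes tested, 28.5% were called lower and 26.8% higher (55.3% in either direction). Because members are abundant, genes of at least 50 CPM were also counted, a choice made after the data were seen, and 43.9% of these were called lower. The median log2 fold change of the members was -0.46, against 0.00 over all genes and -0.06 over genes of at least 50 CPM. The 3 control libraries and the 3 CD146 shRNA libraries did not overlap for 37 members, as for 59.8% of all genes. The members together took 1.42% ± 0.0278 of the summed FPKM (fragments per kilobase and per 1e6 fragments, which corrects for gene length) under control shRNA and 0.934% ± 0.0143 under CD146 shRNA (SD, n = 3).

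**Figure D1:**
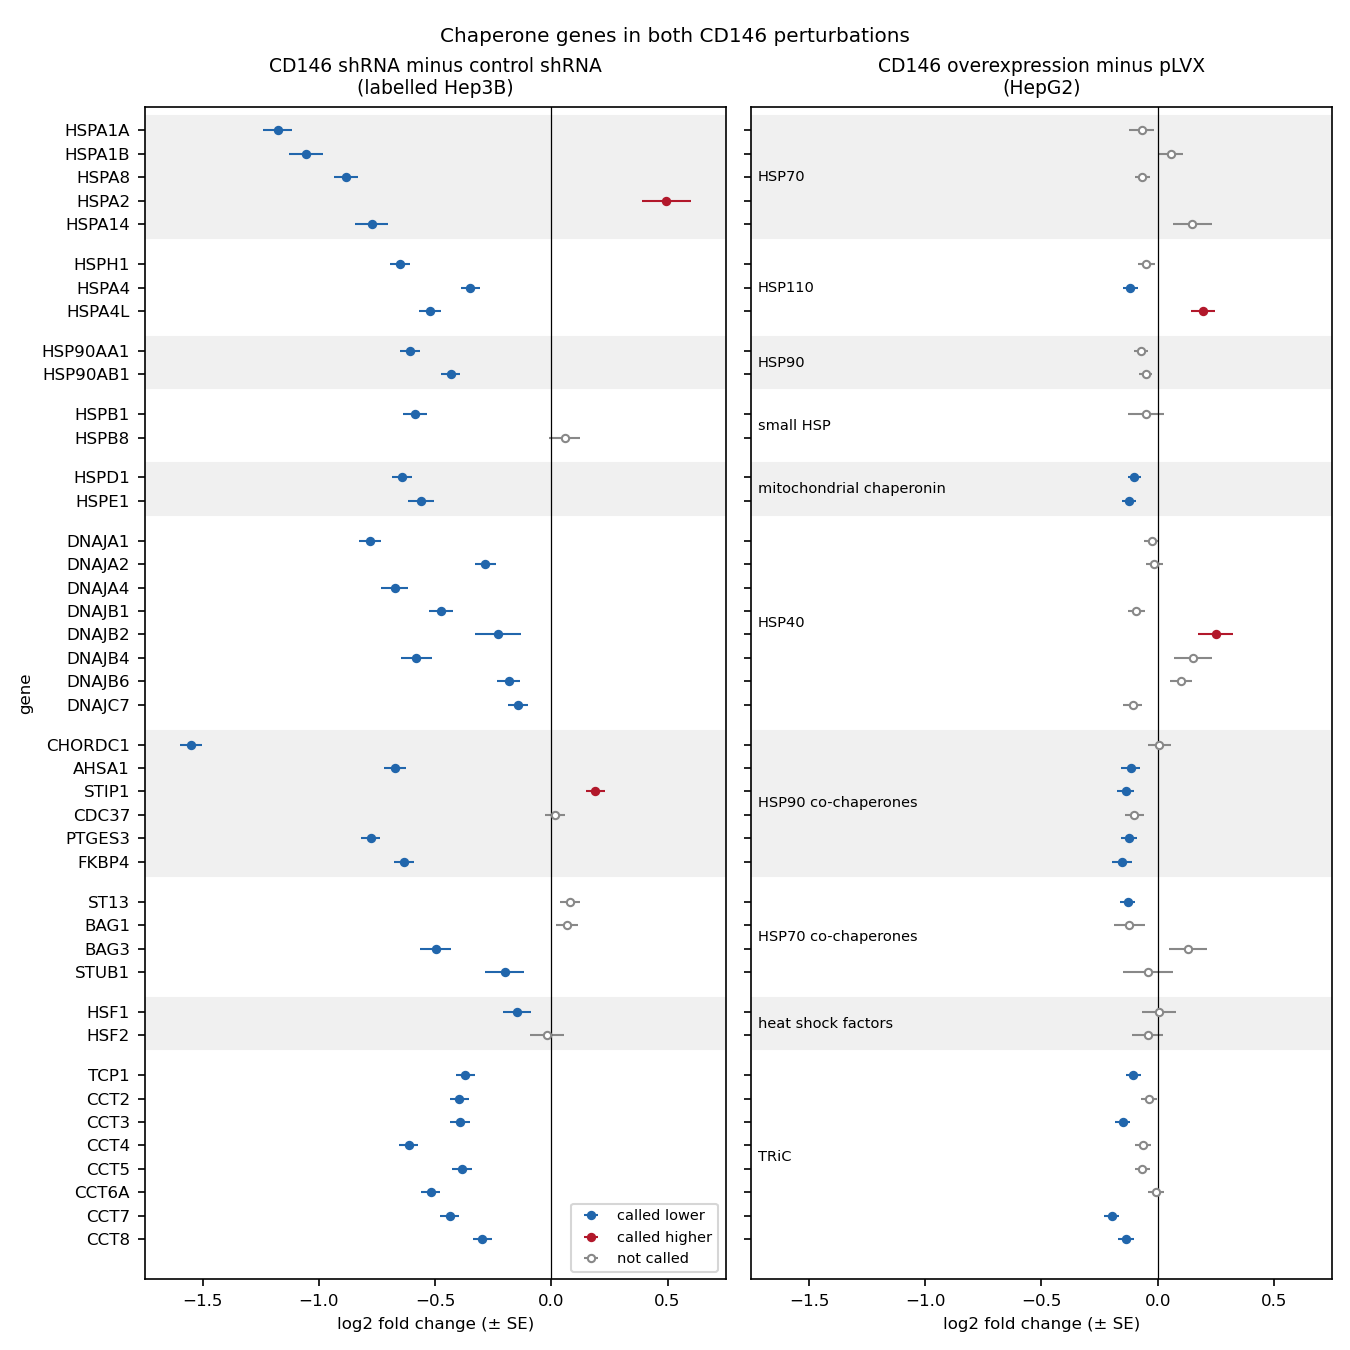
Log2 fold change with its standard error (horizontal axis) of each member (rows, grouped by class) in the knockdown (left) and the overexpression (right), with filled points for called members and open points for members not called. In the knockdown 35 of 42 points are filled and lie below 0, while in HepG2 the points lie between -0.20 and 0.25, and HSPA2, HSPB8 and DNAJA4 have no point there because they were not tested.

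Among the HSP70 genes, the constitutive and the stress-inducible forms fell and HSPA2 rose. HSPA8, the constitutive cytosolic HSP70, stood at 1373, 1510 and 1440 CPM under control shRNA and at 678, 822 and 845 CPM under CD146 shRNA. It fell to 54.2% of control (edgeR log2 fold change -0.88, SE 0.05, adjusted p = 1.2e-17), and the lowest control library lay above the highest treated one. HSPA1A, a stress-inducible HSP70, stood at 76.9, 83.6 and 74.5 CPM in the controls and at 30.5, 35.4 and 38.4 CPM under CD146 shRNA (edgeR log2 fold change -1.18, SE 0.06, adjusted p = 5.8e-19). Its near-identical copy HSPA1B stood at 44.6, 42.6 and 42.8 CPM against 18.2, 22.5 and 22.1 CPM (edgeR log2 fold change -1.06, SE 0.07, adjusted p = 1.0e-15). Reads of these copies can be split or lost in counting, so their separate levels are uncertain. With both copies summed the log2 fold change was -1.13. HSPA14, an HSP70 found with ribosomes, fell by 0.77 on the log2 scale. HSPA2, known best from the testis, was the exception: it stood at 10.7, 11 and 9.03 CPM under control shRNA and at 13.3, 14.3 and 15.7 CPM under CD146 shRNA, a rise of 0.50 on the log2 scale (SE 0.10, edgeR adjusted p = 9.0e-05).

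Per length, HSPA8 made up 81.8% ± 0.792 of the FPKM of the 5 HSP70 genes in the controls and 82.6% ± 0.424 with the CD146 shRNA. The share of HSPA1A and HSPA1B together was 14.2, 13.6 and 13.3% in the control libraries and 11.7, 11.6 and 11.8% with the CD146 shRNA. These groups did not overlap (exact 2-sided permutation test p = 0.1, the smallest that 3 against 3 libraries allow). HSPA8 thus remained the main HSP70 transcript in both groups.

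The 3 HSP110 genes, nucleotide exchange factors related to HSP70, fell together. HSPH1 stood at 319, 336 and 324 CPM in the controls and at 205, 203 and 215 CPM under CD146 shRNA (edgeR log2 fold change -0.65, SE 0.04, adjusted p = 1.2e-16). HSPA4, the most abundant per length at 70.9 ± 2.16 FPKM in the controls, went from 345, 370 and 354 CPM to 271, 280 and 288 CPM (log2 fold change -0.35, edgeR adjusted p = 2.9e-09). HSPA4L went from 113, 115 and 112 CPM to 80.6, 76.0 and 79.4 CPM (log2 fold change -0.52, edgeR adjusted p = 2.0e-12). In none of the 3 genes did a treated library reach a control library.

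Both cytosolic HSP90 genes fell, the inducible HSP90AA1 with the larger fold change and the constitutive HSP90AB1 with the smaller. HSP90AA1 stood at 3059, 3178 and 3014 CPM under control shRNA and at 1920, 2090 and 2056 CPM under CD146 shRNA (65.6% of control, edgeR log2 fold change -0.61, SE 0.04, adjusted p = 2.4e-15). HSP90AB1 stood at 2396, 2485 and 2382 CPM against 1762, 1804 and 1815 CPM (74.1% of control, edgeR log2 fold change -0.43, SE 0.04, adjusted p = 9.4e-12). Groups did not overlap for either gene. The share of HSP90AA1 in the HSP90 FPKM was 42.7, 42.8 and 42.5% in the controls and 38.9, 40.4 and 39.8% with the CD146 shRNA, a difference of -2.97 percentage points (exact 2-sided permutation test p = 0.1, the smallest possible).

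The co-chaperones of HSP90 held the member with the largest fall and 1 of the members that rose. CHORDC1, a CHORD-domain protein that binds HSP90, stood at 166, 166 and 164 CPM under control shRNA and at 58.0, 54.4 and 57.0 CPM under CD146 shRNA. It fell to 34.2% of control (edgeR log2 fold change -1.55, SE 0.05, adjusted p = 4.2e-27), with narrow groups far apart. PTGES3, the p23 protein that stabilises ATP-bound HSP90, went from 548, 542 and 527 CPM to 321, 301 and 322 CPM (edgeR log2 fold change -0.78, SE 0.04, adjusted p = 3.0e-19). AHSA1, the activator of the HSP90 ATPase, went from 137, 136 and 130 CPM to 79.4, 85.4 and 88.5 CPM (log2 fold change -0.67, edgeR adjusted p = 2.9e-15). FKBP4, an immunophilin of steroid receptor complexes, went from 212, 217 and 208 CPM to 130, 139 and 141 CPM (log2 fold change -0.64, edgeR adjusted p = 1.2e-15). STIP1, also called HOP, which joins HSP70 to HSP90, moved the other way, from 348, 356 and 346 CPM to 387, 409 and 402 CPM (edgeR log2 fold change 0.19, SE 0.04, adjusted p = 0.00012), and its groups did not overlap. CDC37, which brings kinases to HSP90, was not called (149 ± 4.23 and 151 ± 6.38 CPM, log2 fold change 0.02, edgeR adjusted p = 0.78).

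**Figure D2:**
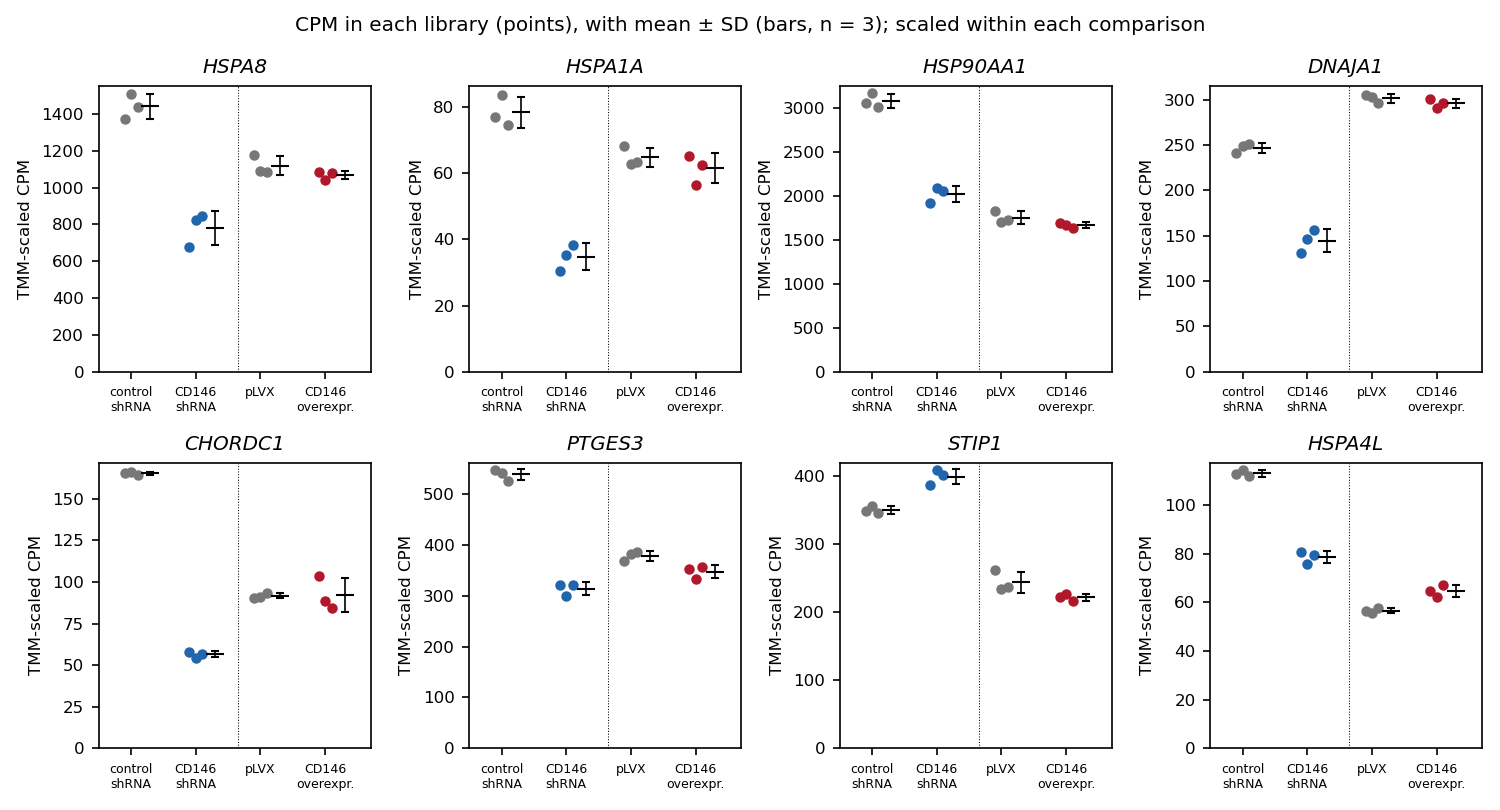
TMM-scaled CPM (vertical axis, from 0) of 8 members in each library (points) of the 4 groups, with mean ± SD of 3 libraries (bars), each comparison scaled on its own 6 libraries. HSPA8, HSPA1A, HSP90AA1, DNAJA1, CHORDC1, PTGES3 and HSPA4L lie lower with the CD146 shRNA in all 3 libraries, STIP1 lies higher, and the groups of HepG2 lie close to each other.

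All 8 HSP40 genes were called lower, with a median of -0.38. DNAJA1, the most abundant per length at 93.5 ± 1.77 FPKM in the controls, stood at 241, 248 and 252 CPM against 131, 146 and 156 CPM under CD146 shRNA (edgeR log2 fold change -0.78, SE 0.05, adjusted p = 3.0e-17). Its groups were far apart. DNAJA4 fell by 0.67, DNAJB4 by 0.58, DNAJB1, the J-domain partner of stress-inducible HSP70, by 0.48 and DNAJA2 by 0.28 on the log2 scale. DNAJB6, which holds back aggregation of polyglutamine proteins, and DNAJC7 had log2 fold changes of -0.18 and -0.14. DNAJB2 stood at 14.6, 13 and 16.6 CPM against 12.9, 13.1 and 11.9 CPM, so its groups overlapped (log2 fold change -0.23, edgeR adjusted p = 0.046). The calls of DNAJB2, DNAJC7, HSF1 and STUB1 were lost with upper-quartile scaling.

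HSPB1, the small heat shock protein HSP27, stood at 148, 136 and 131 CPM in the controls and at 85.1, 101 and 90.7 CPM under CD146 shRNA (edgeR log2 fold change -0.59, SE 0.05, adjusted p = 2.5e-12). Its groups did not overlap. HSPB8, the small heat shock protein that pairs with BAG3, stood at 36.3 ± 0.697 and 37.6 ± 3.18 CPM and was not called (log2 fold change 0.06, edgeR adjusted p = 0.48).

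Of the 4 co-chaperones of HSP70, 2 fell. BAG3, a nucleotide exchange factor that links HSP70 to autophagy, went from 40.1, 40.3 and 37.4 CPM to 26.2, 28.7 and 28.7 CPM (edgeR log2 fold change -0.50, SE 0.07, adjusted p = 3.6e-08). STUB1, the ubiquitin ligase CHIP, had a log2 fold change of -0.20 (edgeR adjusted p = 0.042). ST13, the HSP70-interacting protein HIP and the most abundant of the 4 per length, stood at 188, 188 and 176 CPM against 194, 189 and 201 CPM, and was not called although its groups did not overlap (log2 fold change 0.08, edgeR adjusted p = 0.11). BAG1 was not called either (log2 fold change 0.07, edgeR adjusted p = 0.24). With upper-quartile scaling ST13 and BAG1 were called higher.

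The transcripts of the heat shock factors moved little. HSF1, the main heat shock factor, stood at 42, 43.4 and 42.4 CPM in the controls and at 38.7, 39.5 and 37.0 CPM under CD146 shRNA (edgeR log2 fold change -0.15, SE 0.06, adjusted p = 0.036). HSF2, the more abundant per length, stood at 26.1, 25.5 and 26.7 CPM against 24.2, 25.2 and 28.3 CPM (log2 fold change -0.02, edgeR adjusted p = 0.85), and its groups overlapped. Transcript levels do not measure the activity of these factors.

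All 8 TRiC subunits fell, by between -0.61 and -0.30 with a median of -0.39 on the log2 scale, and no group overlapped for any of them. CCT4 had the smallest adjusted p, at 369, 370 and 361 CPM in the controls and 234, 238 and 248 CPM under CD146 shRNA (edgeR log2 fold change -0.61, SE 0.04, adjusted p = 3.6e-16). CCT3, the most abundant per length, went from 753, 772 and 733 CPM to 559, 562 and 600 CPM (log2 fold change -0.39, edgeR adjusted p = 1.4e-10). CCT8 had the smallest fall, from 443, 445 and 411 CPM to 354, 352 and 351 CPM (log2 fold change -0.30, edgeR adjusted p = 7.7e-08), and 4.85% as many counts as its own lay on its named pseudogenes. CCT7 went from 391, 386 and 378 CPM to 278, 287 and 288 CPM, and TCP1 went from 305, 308 and 294 CPM to 228, 234 and 240 CPM. The mean over the 8 subunits was 126, 127 and 122 FPKM in the control libraries and 89.8, 89.2 and 92.3 FPKM with the CD146 shRNA. The ratio of the highest to the lowest subunit was 3.14 ± 0.0238 and 3.09 ± 0.0632, a difference of -0.05 (exact 2-sided permutation test p = 0.3), a ratio that rests on CCT3 and TCP1 alone. CCT4, with the largest fall, went from the third to the fifth place among the 8 per length.

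**Figure D3:**
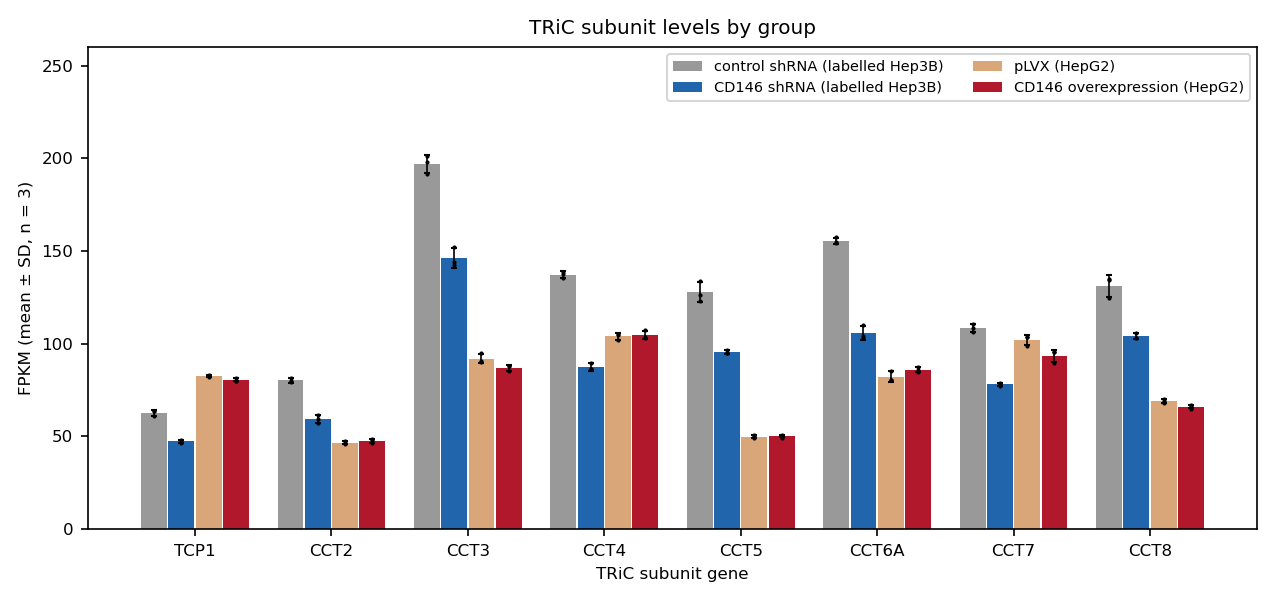
FPKM (vertical axis) of the 8 TRiC subunit genes (horizontal axis) in the 4 groups, as mean ± SD of 3 libraries (bars) with each library as a point. With the CD146 shRNA each of the 8 subunits lies below its control, and in HepG2 the bars of both groups lie close together for each subunit.

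The mitochondrial chaperonin genes HSPD1 (HSP60) and HSPE1 (HSP10), which share a bidirectional promoter on chromosome 2, also fell. HSPD1 stood at 986, 1072 and 1001 CPM in the controls and at 633, 662 and 665 CPM under CD146 shRNA (edgeR log2 fold change -0.64, SE 0.04, adjusted p = 2.2e-16). HSPE1 stood at 139, 145 and 137 CPM against 84.4, 92.4 and 110 CPM (edgeR log2 fold change -0.56, SE 0.06, adjusted p = 6.1e-11). Neither gene's groups overlapped, and the FPKM ratio of HSPE1 to HSPD1 was 0.577 ± 0.0118 and 0.611 ± 0.0712. These genes overlap each other in the annotation. Without them, 33 of 40 members were lower and the median was -0.43.

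Other folding genes were counted from lists drawn up beside the members. Of 10 other HSP90 co-chaperones 7 fell and none rose, those of smallest adjusted p being PPID (-0.69) and PPP5C (-0.43 on the log2 scale). Of 10 other HSP70 co-chaperones 7 fell and SGTA rose. Among these the J-domain histone chaperone DNAJC9 went from 46.5 to 14.4 CPM (log2 fold change -1.70, edgeR adjusted p = 2.8e-21), a larger fall than that of any member, and DNAJC2 had -0.55. Of 10 prefoldin, phosducin-like and nascent chain factors 8 fell and none rose, those of smallest adjusted p being PDCL3 (-0.84) and NACA (-0.36). The HSP70 and HSP90 proteins of other compartments did not share this direction: 4 of 6 rose, HYOU1 from 231 to 487 CPM (log2 fold change 1.08, edgeR adjusted p = 2.8e-22), HSPA5 (BiP) by 0.69, HSP90B1 (GRP94) by 0.60 and HSPA13 by 0.58. HYOU1, HSPA5 and HSP90B1 are chaperones of the endoplasmic reticulum. HSPA9 and TRAP1, of mitochondria, had log2 fold changes of -0.13 and -0.12 and were called lower. Of 9 other genes linked to HSF1 that were tested, 6 fell and 3 rose, those of smallest adjusted p being HSF4 (0.99) and SERPINH1 (0.41).

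In the knockdown the 7 members with the 3-unit heat shock element were all called lower, with a median log2 fold change of -0.64 and a range of -1.55 to -0.18. The 29 members in the table without it had a median of -0.40, with 23 lower and 2 higher. Over all 54 tested genes with the motif the median was -0.03, with 16 called lower and 15 called higher. With 2 adjoining units as the motif, 19 members held it, among them HSPA1A and HSPA1B, against 16.2% of genes. Their median was -0.59, with 17 lower, and that of the 17 members without it was -0.35, with 13 lower. In the overexpression described below, the 7 members with the 3-unit motif had a median of -0.05, with 1 lower. The 26 tested members without it had a median of -0.08, with 9 lower and 2 higher. Between the control groups of the lines, also below, the medians were 0.06 with the 3-unit motif and 0.21 without. A link between the motif and these changes was not tested.

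CHORDC1 had the lowest neighbours of the members in the knockdown. Of its 20 nearest tested genes on chromosome 11, 17 had a log2 fold change below 0, 13 were called lower and none higher, with a median of -0.61 in the knockdown. Over all members the median of the neighbours ranged from -0.61 to 0.45 with a median of 0.01. HSPA8, on the same chromosome, lay among genes with a median of 0.15, and STIP1, also there, among genes with a median of 0.45, of which 15 were called higher. The change of STIP1 (0.19) was thus below that of its neighbours and that of CHORDC1 (-1.55) beyond that of its neighbours. The part of the neighbourhood in these values was not tested. In the overexpression the neighbours of CHORDC1 had a median of 0.01. Without the 3 members on chromosome 11, 33 of 39 members were lower in the knockdown and the median was -0.44.

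**Figure D4:**
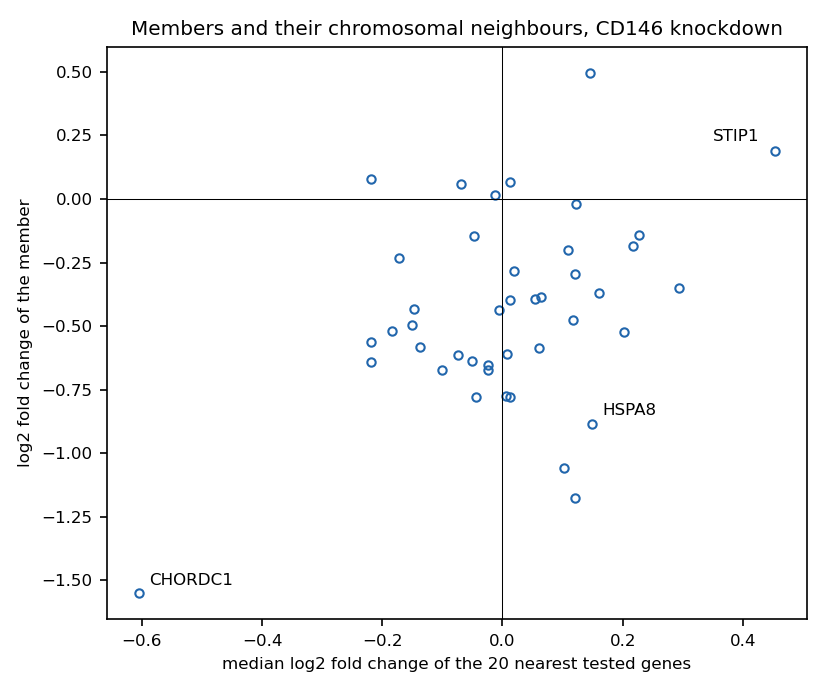
Log2 fold change in the knockdown of each member (vertical axis) against the median of its 20 nearest tested genes, 10 on each side (horizontal axis). CHORDC1 lies alone at the lower left, with neighbours at -0.61, HSPA8 lies at 0.15 and STIP1 at the far right at 0.45.

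The second comparison asked how the same genes stood when CD146 was raised in HepG2. HSPA2, HSPB8 and DNAJA4 were at or near the floor there, with means between 0.196 and 0.552 CPM in both groups, and were not tested. Of the other 39 members 12 were called lower, 2 higher and 25 not called. Over all 15300 genes tested 10.3% were called lower and 9.55% higher (19.8% in either direction), and over those of at least 50 CPM 23.6% were called lower. The changes were small, with log2 fold changes from -0.20 to 0.25 and a median of -0.07, against 0.00 over all genes and -0.03 over genes of at least 50 CPM. Groups did not overlap for 21 of the 39 members, against 33.6% of all genes. The members' share of the summed FPKM went the other way, at 1.06, 1.03 and 1.03% in pLVX libraries and 1.10, 1.07 and 1.10% with CD146, and did not overlap (exact 2-sided permutation test p = 0.1, the smallest possible). With limma on the deposited FPKM, a scale on which the median of all genes was 0.07, 3 members were called (CCT7 lower, HSPA4L and DNAJB2 higher) and the median of the members was 0.01.

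The abundant HSP70 and HSP90 genes were not called. HSPA8 stood at 1178, 1092 and 1086 CPM in pLVX libraries and at 1084, 1043 and 1079 CPM with CD146 (edgeR log2 fold change -0.07, SE 0.03, adjusted p = 0.13). HSP90AA1 stood at 1837, 1705 and 1725 CPM against 1697, 1674 and 1635 CPM (edgeR log2 fold change -0.07, SE 0.03, adjusted p = 0.075), and HSP90AB1 at 2782, 2671 and 2608 CPM against 2567, 2605 and 2603 CPM (edgeR log2 fold change -0.05, SE 0.03, adjusted p = 0.21). The treated libraries of these 3 genes lay just below the lowest pLVX library. HSPA1A stood at 68.1, 62.6 and 63.4 CPM against 65.3, 56.4 and 62.5 CPM (log2 fold change -0.07, edgeR adjusted p = 0.40). HSPA1B stood at 61.5, 60.4 and 56.0 CPM against 68.1, 57.1 and 59.4 CPM (log2 fold change 0.06, edgeR adjusted p = 0.54). The groups of both genes overlapped. The share of HSP90AA1 in the HSP90 FPKM was 27.6% ± 0.397 with pLVX and 27.4% ± 0.513 with CD146 (exact 2-sided permutation test p = 0.6), and that of HSPA1A and HSPA1B in the HSP70 FPKM was 17.5% ± 0.172 and 18% ± 0.964 (p = 0.7 in the same exact test).

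The called falls lay mostly in TRiC, the HSP90 co-chaperones and the mitochondrial chaperonin. CCT7 stood at 383, 380 and 363 CPM in pLVX libraries and at 314, 336 and 333 CPM with CD146 (edgeR log2 fold change -0.20, SE 0.03, adjusted p = 6.5e-06), with groups apart. CCT3 stood at 379, 357 and 359 CPM against 321, 333 and 331 CPM (log2 fold change -0.15, edgeR adjusted p = 0.00041), and CCT8 at 242, 236 and 234 CPM against 212, 219 and 216 CPM (log2 fold change -0.14, edgeR adjusted p = 0.0021). TCP1 stood at 416, 411 and 415 CPM against 382, 391 and 381 CPM (log2 fold change -0.11, edgeR adjusted p = 0.011). The other 4 subunits were not called, and the mean subunit level was 78.5 ± 1.07 FPKM with pLVX and 76.9 ± 1.00 FPKM with CD146.

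FKBP4 stood at 103, 97.9 and 98.9 CPM in pLVX libraries and at 89.7, 87.3 and 91.8 CPM with CD146 (edgeR log2 fold change -0.15, SE 0.04, adjusted p = 0.0066). STIP1 stood at 262, 234 and 237 CPM against 223, 226 and 216 CPM (log2 fold change -0.14, edgeR adjusted p = 0.0046), and PTGES3 at 367, 383 and 386 CPM against 353, 333 and 357 CPM (log2 fold change -0.12, edgeR adjusted p = 0.0043). All 3 had groups that did not overlap. AHSA1 stood at 122, 114 and 113 CPM against 107, 107 and 108 CPM (log2 fold change -0.12, edgeR adjusted p = 0.038), a call lost with DESeq2. CHORDC1, the largest fall of the knockdown, stood at 90.6, 91.0 and 93.3 CPM in pLVX libraries and at 103, 88.5 and 84.6 CPM with CD146, so the pLVX libraries lay inside the range of the treated ones (edgeR log2 fold change 0.01, SE 0.05, adjusted p = 0.94).

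HSPD1 stood at 2485, 2458 and 2440 CPM in pLVX libraries and at 2278, 2301 and 2305 CPM with CD146 (edgeR log2 fold change -0.10, SE 0.03, adjusted p = 0.0054). HSPE1 stood at 332, 333 and 333 CPM against 303, 307 and 306 CPM (edgeR log2 fold change -0.12, SE 0.03, adjusted p = 0.0032). ST13 stood at 335, 340 and 341 CPM against 313, 312 and 304 CPM (edgeR log2 fold change -0.13, SE 0.03, adjusted p = 0.0021). The groups of these 3 genes were narrow and apart. The calls of HSPD1, HSPE1, TCP1 and AHSA1 were lost when all 12 libraries were fitted together, which left 10 members called. HSPA4 stood at 258, 241 and 252 CPM against 227, 232 and 233 CPM (log2 fold change -0.12, edgeR adjusted p = 0.010).

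Both rises were those of HSPA4L and DNAJB2. HSPA4L stood at 56.6, 55.5 and 57.6 CPM in pLVX libraries and at 64.6, 62.1 and 67.0 CPM with CD146 (edgeR log2 fold change 0.19, SE 0.05, adjusted p = 0.0031). DNAJB2, a J-domain protein rich in neurons, stood at 22.7, 21.5 and 20.2 CPM against 27.7, 23.4 and 25.3 CPM (edgeR log2 fold change 0.25, SE 0.08, adjusted p = 0.013), a call lost with DESeq2. No treated library of either gene fell to the level of pLVX. Members at the head of other classes were not called and overlapped between the groups. DNAJA1 stood at 305, 303 and 296 CPM in pLVX libraries and at 300, 291 and 297 CPM with CD146 (log2 fold change -0.03). HSPB1 stood at 22.1, 22.3 and 21.0 CPM against 19.4, 20.5 and 23.1 CPM (log2 fold change -0.05). HSF2 stood at 30.9, 33.9 and 31.7 CPM against 34.5, 29.9 and 29.6 CPM (log2 fold change -0.04). Neither HSF1 nor BAG3 was called, at log2 fold changes of 0.00 and 0.13. Of the other lists, 1 of 10 HSP90 co-chaperones (NUDC), 1 of 10 HSP70 co-chaperones (BAG6) and 3 of 10 prefoldin and nascent chain factors were called lower and none higher. Among the chaperones of other compartments, HSP90B1 had a log2 fold change of -0.14 and TRAP1 of -0.14 and both were called lower, while HYOU1, HSPA5, HSPA13 and HSPA9 were not called.

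Calls in both perturbations were compared for the members, since knockdown and overexpression share no libraries. The same 10 of 39 members tested in both were lower in both (HSPA4, HSPD1, HSPE1, AHSA1, PTGES3, FKBP4, TCP1, CCT3, CCT7 and CCT8). Of 13559 genes tested in both, 4.45% were called lower in both. The 10 were 28.6% of the 35 lower in the knockdown and 83.3% of the 12 lower in the overexpression. Among the 35, DNAJA4 was not tested in the overexpression and so could not be shared. As most of the 39 members were lower in the knockdown, most falls of the overexpression would be shared without any link. With limma on FPKM only CCT7 of the 10 stayed called in the overexpression. HSPA4L and DNAJB2 were lower with less CD146 and higher with more (2.57% of genes), and STIP1 was higher with less CD146 and lower with more (2.89% of genes). The knockdown call of DNAJB2 was lost under 9 of 14 alternatives, and its overexpression call under 3. STIP1 lost its overexpression call under 3 as well, while HSPA4L kept both calls under all. No member was higher in both (3.34% of genes). The 22 members that fell in the knockdown and were not called in the overexpression included HSPA8, HSPA1A, HSPA1B, both HSP90 genes, HSPH1, DNAJA1 and CHORDC1.

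The difference between the responses was tested in a fit of all 12 libraries, as the effect of higher CD146 in HepG2 (CD146 minus pLVX) minus that in the libraries labelled Hep3B (control minus CD146 shRNA). It was called below 0 for 31 members, above 0 for none and not called for 11, while 19.2% of all 18870 genes were called below 0 and 17.2% above (36.4% in either direction). The median was -0.48 for members and 0.04 for all genes. Line, medium, method of perturbation, Tet-on induction and size of the CD146 change cannot be told apart in this contrast. For MCAM itself the effect of higher CD146 was 2.25 in the libraries labelled Hep3B and 6.37 in HepG2 on the log2 scale. CHORDC1 had the largest difference (-1.54, SE 0.07, edgeR adjusted p = 3.4e-25), followed by HSPA1A (-1.24). HSPA8 had -0.95, HSP90AA1 -0.68 and HSP90AB1 -0.48, and all 8 TRiC subunits were called, between -0.67 and -0.43. DNAJB2 and STIP1, whose levels moved in opposite directions between the perturbations, were among the 11 not called (differences of 0.02 and 0.05), since their effects per direction of CD146 were alike in sign and size. HSPA4L was called (-0.33), its effect of higher CD146 being 0.52 in the libraries labelled Hep3B and 0.19 in HepG2.

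The third comparison set the control shRNA libraries, labelled Hep3B, against the pLVX libraries of HepG2. CD146 was manipulated in neither group, but the MCAM levels given above were higher under control shRNA than with pLVX. Line, vector, medium, Tet-on induction and CD146 level cannot be told apart here, and the comparison shares its libraries with the comparisons above. CPM in this comparison were scaled on these 6 libraries and so differ from those given above. Of the 42 members 24 were higher in the libraries labelled Hep3B, 14 lower and 4 not called (HSPA1A, HSPA8, CDC37 and CCT4), while 43.0% of all 17401 genes were called higher and 42.1% lower (85.2% in either direction). Groups did not overlap for 40 members, as for 85.1% of all genes. The median log2 fold change was 0.22, against 0.02 over all genes and -0.09 over genes of at least 50 CPM. Of these 4544 abundant genes 1903 were called higher and 2257 lower. On the FPKM scale the median of all genes was 0.36, and members stood at 0.57, which was 0.21 above it.

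The chaperones that set the lines apart most were 3 genes that HepG2 did not express above the floor or only just did. HSPB8 stood at 31.8, 32.9 and 32.9 CPM in the libraries labelled Hep3B and at 0.0893, 0.337 and 0.322 CPM in HepG2. DNAJA4 stood at 50.7, 51.5 and 51.1 CPM against 0.536, 0.405 and 0.886 CPM. HSPA2 stood at 9.57, 9.77 and 8.13 CPM against 0.446, 0.202 and 0 CPM. No fold is given for these, since the counts in HepG2 were so few.

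Among well expressed members, HSPB1 was higher in the libraries labelled Hep3B (132, 122 and 118 CPM against 24.4, 24.6 and 23.2 CPM; edgeR log2 fold change 2.36, SE 0.06, adjusted p = 7.0e-63). The mitochondrial chaperonin genes were lower. HSPD1 stood at 883, 955 and 901 CPM against 2741, 2711 and 2691 CPM in HepG2 (edgeR log2 fold change -1.57, SE 0.04, adjusted p = 1.6e-62), and HSPE1 had a log2 fold change of -1.55. Their FPKM ratio was nevertheless close in both lines, 0.577 ± 0.0118 and 0.566 ± 0.00559 for HSPE1 to HSPD1.

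The HSP90 genes went in opposite directions between the lines. HSP90AA1 was higher in the libraries labelled Hep3B (2740, 2832 and 2713 CPM against 2026, 1881 and 1902 CPM; log2 fold change 0.51) and HSP90AB1 was lower (2146, 2215 and 2144 CPM against 3069, 2946 and 2876 CPM; log2 fold change -0.45). HSP90AB1 was nevertheless the most abundant member per length in both, at 821 ± 16.2 FPKM with the control shRNA and 878 ± 24.8 FPKM with pLVX. HSPA8 was not called (1291 ± 58.2 and 1234 ± 56.9 CPM, log2 fold change 0.06, edgeR adjusted p = 0.10), but was called higher under 7 of 14 alternatives (among them without control shRNA replicate 1, at a log2 fold change of 0.11, and without pLVX replicate 1, at 0.10), as were CCT4 under 3 and CDC37 under 2. HSPA1B was lower in the libraries labelled Hep3B (log2 fold change -0.75) while HSPA1A was not called (-0.02). With both copies summed the log2 fold change was -0.33 and was called. The FPKM ratio of HSPA1A to HSPA1B was 1.9 ± 0.140 there and 1.14 ± 0.0513 in HepG2, a ratio that rests on how reads of the near-identical copies were assigned.

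**Figure D5:**
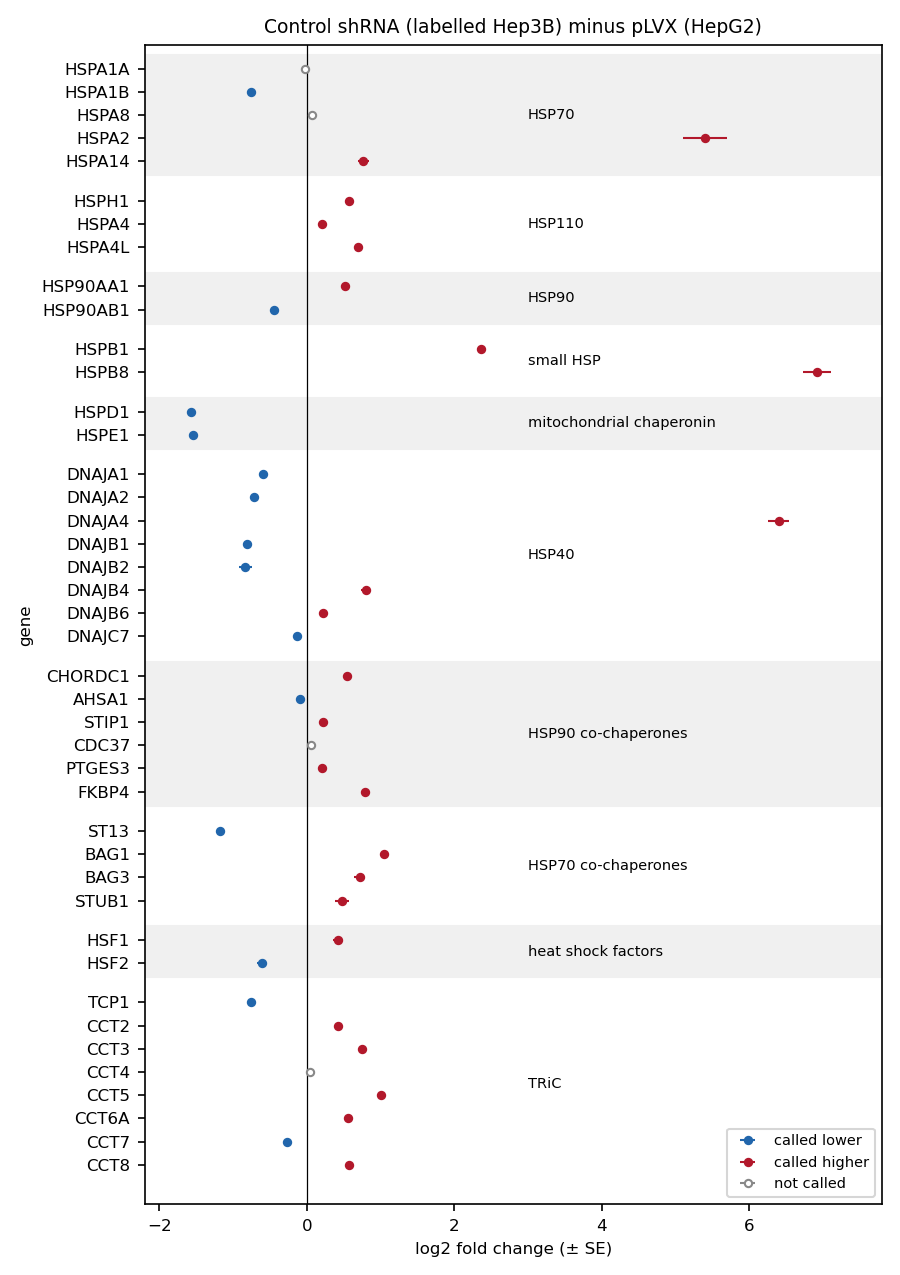
Log2 fold change with its standard error (horizontal axis) of each member (rows, by class) between the control shRNA libraries labelled Hep3B and the pLVX libraries of HepG2, filled where called. HSPA2, HSPB8 and DNAJA4 lie at the far right because HepG2 is at or near the floor, and HSPD1 and HSPE1 lie lowest, near -1.6.

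The HSP40 genes split by gene, with DNAJB4 (0.80) and DNAJB6 (0.22) higher in the libraries labelled Hep3B beside DNAJA4, and DNAJB2 (-0.83), DNAJB1 (-0.82), DNAJA2 (-0.72) and DNAJA1 (-0.59) lower. All 3 HSP110 genes were higher, HSPH1 (285, 299 and 291 CPM against 200, 200 and 187 CPM) by 0.58. Among the co-chaperones, FKBP4 was higher (190, 194 and 187 CPM against 113, 108 and 109 CPM; log2 fold change 0.79, edgeR adjusted p = 5.5e-34), as were BAG1 (1.05) and CHORDC1 (0.55). ST13 was lower (168, 168 and 159 CPM against 369, 375 and 376 CPM; edgeR log2 fold change -1.18, SE 0.04, adjusted p = 1.6e-51). HSF1 was higher by 0.42 and HSF2 was lower (23.4, 22.7 and 24.0 CPM against 34.1, 37.4 and 34.9 CPM; log2 fold change -0.60). AHSA1, DNAJC7 and CCT7 were called lower (-0.09, -0.14 and -0.26). On the FPKM scale, where the median of all genes was 0.36, all 3 were called higher (0.26, 0.22 and 0.09). All 3 lay below that median. AHSA1 was at 0.00 and not called with upper-quartile scaling.

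The TRiC subunits, each of which occupies its own place in the ring, did not stand at equal transcript levels, and their order differed between the lines. In the control shRNA libraries CCT3 was highest (197 ± 4.75 FPKM) and TCP1 lowest (62.6 ± 1.51 FPKM). In HepG2 with pLVX CCT4 was highest (104 ± 1.80 FPKM), with CCT7 (102 ± 2.70 FPKM) within the spread of the libraries, and CCT2 was lowest (46.6 ± 0.852 FPKM). CCT5 differed most between the lines (628, 668 and 618 CPM against 325, 318 and 314 CPM; edgeR log2 fold change 1.00, SE 0.04, adjusted p = 5.0e-46), followed by CCT3 (0.75). TCP1 went the other way (edgeR log2 fold change -0.75, SE 0.04, adjusted p = 1.5e-36), and the libraries of the lines did not overlap for any of the 3. Highest over lowest subunit was 3.14 ± 0.0238 in the control shRNA libraries and 2.23 ± 0.0308 in HepG2 with pLVX.

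In the annotation 28 of the 42 members overlap another counted gene, so reads may be shared. Pseudogenes named by the member symbol followed by P and a number were found for 21 members. Pseudogenes named otherwise were not counted, so a member without a named one may still share reads. Among the 14 without such an overlap, 11 were lower and 1 higher in the knockdown (median -0.41), 3 lower and 1 higher in the overexpression, and 7 lower and 6 higher between the lines (median -0.14, of opposite sign to that of all members).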

How the data were processed

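Poly(A) RNA-seq of 12 libraries in 4 groups of 3 was used, grouped by the treatment label. Raw counts per Ensembl gene were deposited by the authors, and FPKM values scaled by length and library size were deposited by the authors beside them. Per the submitters' processing notes, the tools included HTSeq 0.6.1, HISAT2 2.2.1 and cutadapt 1.9.1. Genome build, annotation and strand setting are not given in the sources used here. Symbols were found for 61757 of 61806 IDs. Overlaps and neighbours were taken from GENCODE 29, pseudogenes from the symbols and promoters from RefSeq (GRCh38.p14).

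edgeR 4.0.16 under R 4.3.3 gave the quasi-likelihood tests of the counts (TMM scaling, filterByExpr, 2-sided, Benjamini-Hochberg over all genes tested, called at an adjusted p under 0.05). Each comparison was fitted on its own 6 libraries, and the difference of responses on all 12. SE is the absolute log2 fold change over the square root of the F statistic. In simulated data, 93, 90.5, 94 and 77.5% of 200 genes changed by 0.5 on the log2 scale were recovered in the knockdown, overexpression, control line and difference designs, each run on the 15082 to 17998 genes tested. The changed genes were well counted, and all genes were given the same spread. This recovery therefore does not cover smaller changes or genes near the floor. CPM are on TMM-scaled totals, and hepatocyte and other marker levels on unscaled totals. Floors cover counting error only.

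Alternatives were RLE and upper-quartile scaling, no filter, a replicate block, DESeq2 1.42.0, limma 3.58.1 on log2(FPKM + 0.1), all 12 libraries in one fit, HSPA1A and HSPA1B summed and each library left out. All 42 members may be named. Values in every library are given, per class, for the member with the smallest adjusted p in each comparison and the most abundant. They are also given for members called in both perturbations and for those changed by at least 0.8 on the log2 scale in a perturbation. The members and lists were chosen with earlier results of these data known.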

Additional observations from a re-analysis of the deposited data

Results flagged for a closer look

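The response to higher CD146 differed between HepG2 (CD146 minus pLVX) and the libraries labelled Hep3B (control minus CD146 shRNA) for 31 members by the interaction test of edgeR over all 12 libraries. All these differences, HepG2 minus labelled Hep3B on the log2 scale, were below 0. Line, medium, method of perturbation, Tet-on induction and size of the CD146 change cannot be told apart in them. Among HSP70 and HSP110 genes they were -1.24 for HSPA1A, -1.0 for HSPA1B, -0.95 for HSPA8, -0.62 for HSPA14, -0.70 for HSPH1, -0.46 for HSPA4 and -0.33 for HSPA4L. HSP90AA1 had -0.68, HSP90AB1 -0.48, HSPB1 -0.63, HSPD1 -0.74 and HSPE1 -0.68. Among HSP40 genes they were -0.80 for DNAJA1, -0.29 for DNAJA2, -1.07 for DNAJA4, -0.56 for DNAJB1, -0.43 for DNAJB4 and -0.25 for DNAJC7. Co-chaperones had -1.54 for CHORDC1, -0.79 for AHSA1, -0.90 for PTGES3, -0.78 for FKBP4 and -0.36 for BAG3. TRiC subunits had -0.47 for TCP1, -0.43 for CCT2, -0.54 for CCT3, -0.67 for CCT4, -0.45 for CCT5, -0.52 for CCT6A, -0.63 for CCT7 and -0.43 for CCT8. DNAJA4 was near the floor in HepG2, and its call was lost under 14 of 19 alternatives. The call of BAG3 was lost without pLVX replicate 1.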

How the results depend on the processing

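Of the members, 36 of 42 kept their call and direction under every alternative in the knockdown, 25 of 39 in the overexpression, 35 of 42 between the control lines and 40 of 42 in the difference of responses, where sign changes of members not called were left out of the count. Leaving out 1 library at a time gave 8645 to 8894 genes and 34 to 36 members called in the knockdown, 2262 to 2675 and 11 to 16 in the overexpression, 14580 to 15035 and 37 to 38 between the control lines, and 6251 to 6631 and 29 to 31 in the difference. The members' median then ranged from -0.476 to -0.415, from -0.081 to -0.051 and from 0.214 to 0.255. In the knockdown the calls of DNAJB2, HSF1 and STUB1 were lost without single libraries, and in the overexpression those of AHSA1, DNAJB2, HSPA4, PTGES3 (without CD146 replicate 2), STIP1 and TCP1 (without CD146 replicate 3). HSPA4 was lost without pLVX or CD146 replicate 1, STIP1 without pLVX replicate 1 or CD146 replicate 3, and DNAJB2 without CD146 replicate 1 or pLVX replicate 3. The share of HSPA1A and HSPA1B rose by 0.447 percentage points with CD146, and without CD146 replicate 1 the value was -0.088. DESeq2 called 1839 genes in the overexpression against 3037. With limma on FPKM 3 members were called there and their median was 0.006, the calls being 76.3% higher against 48.1%. The same setting gave medians of -0.491 in the knockdown and 0.572 between the lines (63.6% of calls higher against 50.5%), where HSPA1A (0.329), DNAJC7 (0.215), AHSA1 (0.264) and CCT7 (0.090) changed sign. Upper-quartile scaling gave medians of -0.387 and 0.314, with 58.4% of knockdown calls higher against 48.5%, and AHSA1 at 0.002 between the lines. All 12 libraries in 1 fit gave 0.260 between the lines. Among alternatives chosen after seeing the data, the median between the lines was 0.321 without the mitochondrial chaperonin genes. Members without an overlapping counted gene, 14 in number, gave 12, 4 and 13 calls, with medians of -0.414, -0.046 and -0.145. With 2-unit motifs 19 members held a heat shock element, against 7 with 3 units. The cause of these differences was not tested. Same-numbered libraries did not deviate together (correlations from -0.009 to 0.016), and the main fits did not pair them. The deviations include counting noise, so these correlations cannot exclude a shared batch. With the replicate block 9543, 2947, 14712 and 6847 genes and 37, 13, 38 and 30 members were called, in the order above, with AHSA1 lost in the overexpression and DNAJA4 in the difference. Between the lines the median of all genes was 0.360 with limma on FPKM, 0.142 with no filter and 0.113 with upper-quartile scaling, against 0.022.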
